A study of Mus musculus with 22 samples.

Results

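Hepatocyte chromatin was compared between mice with mild disease on a FPC diet and mice on a control diet. ATAC-seq, which reads DNA where a transposase can insert, gave 4 FPC mild and 4 FPC control libraries, 8 of the 22 libraries of the series, and all 68827 peaks entered the comparison. The 4 FPC mild libraries came from male HEP-INTACT mice that ate the FPC diet (high in fructose, palmitate and cholesterol) for 20 weeks and whose livers, by histology, held fat and inflammation without marked fibrosis. The 4 FPC control libraries came from male HEP-INTACT mice that ate a low fat diet for 20 weeks. The other libraries used here for single values were 3 of advanced, fibrotic FPC disease, 4 of mild disease after 7 weeks of CDAHFD (a high-fat diet of defined amino acids without choline) and 4 low fat diet controls of 7 weeks. All groups carry the HEP-INTACT tag, by which nuclei labelled as hepatocyte nuclei are bound to beads and pulled out of whole liver. The labels do not give the promoter that drives the tag, the strain or the age of the mice. Each library is a different mouse, and mice were put into the mild group by the look of their livers.

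Open chromatin marks promoters and enhancers that transcription factors can reach. In fatty liver, hepatocytes store triglyceride in droplets under SREBP-1c, LXR and PPARG and burn fatty acids under PPARA. Sterol synthesis, which SREBP-2 drives, is shut down when cholesterol is plentiful. Inflamed liver signals to hepatocytes through NF-kB, STAT3 and AP-1, and injured hepatocytes can open genes of bile duct cells and targets of YAP, the effector of the Hippo pathway. A peak is given here under its nearest transcription start, which says where the peak lies and not which gene it controls, and accessibility is not expression.

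Of the promoters below, those of Anxa2, Adamts1, Ttc39aos1, Adgrf1 and Asns carry the largest changes among promoter peaks by the naming rule, and that of Cidec was added for its role in lipid droplets after its values were seen. Each run is the 250 bases before a RefSeq start on GRCm38.p6 (the build mm10), written 5′ to 3′ on the gene's strand, and the changed peak overlaps the RefSeq window around that start. Capitals mark every match, on either strand, to any of 20 motifs, SP1 left out. The matches here are AP-1 (TGANTCA), E-box (CACGTG), C/EBP (TTGCNNAA), SREBP (TCACNCCAC), KLF (CACACCC) and the antioxidant response element (TGACNNNGC). Among 32851 RefSeq promoter windows of 300 bases, 7.81% hold the AP-1 letters, 7.15% the E-box, 10.8% those of C/EBP, 1.24% those of SREBP, 7.95% those of KLF and 12.4% those of the antioxidant response element. The first 4 promoters opened in FPC mild livers and the last 2 closed. They are Anxa2 (chr9:69453433-69453682, plus strand), Adamts1 (chr16:85803114-85803363, minus strand), Ttc39aos1 (chr4:109406258-109406507, minus strand), Cidec (chr6:113434765-113435014, minus strand), Adgrf1 (chr17:43270097-43270346, plus strand) and Asns (chr6:7693210-7693459, minus strand).
Anxa2: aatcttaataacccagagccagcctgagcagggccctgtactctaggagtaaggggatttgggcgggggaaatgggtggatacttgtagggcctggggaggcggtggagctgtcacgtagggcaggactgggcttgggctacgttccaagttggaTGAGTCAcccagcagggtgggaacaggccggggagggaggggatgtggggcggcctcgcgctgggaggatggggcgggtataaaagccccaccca
Adamts1: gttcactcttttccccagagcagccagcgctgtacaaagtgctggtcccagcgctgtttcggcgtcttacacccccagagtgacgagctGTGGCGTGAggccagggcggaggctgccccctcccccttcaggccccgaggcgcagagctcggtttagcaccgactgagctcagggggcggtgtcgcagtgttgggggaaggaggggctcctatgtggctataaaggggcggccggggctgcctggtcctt
Ttc39aos1: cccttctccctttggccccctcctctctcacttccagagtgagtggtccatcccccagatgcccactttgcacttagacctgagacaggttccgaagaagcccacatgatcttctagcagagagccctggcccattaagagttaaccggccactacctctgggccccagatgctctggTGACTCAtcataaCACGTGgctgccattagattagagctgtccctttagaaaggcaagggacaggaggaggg
Cidec: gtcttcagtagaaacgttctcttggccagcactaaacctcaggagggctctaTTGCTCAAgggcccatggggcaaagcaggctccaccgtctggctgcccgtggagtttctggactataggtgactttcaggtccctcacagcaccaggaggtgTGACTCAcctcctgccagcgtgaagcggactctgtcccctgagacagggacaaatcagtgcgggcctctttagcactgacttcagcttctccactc
Adgrf1: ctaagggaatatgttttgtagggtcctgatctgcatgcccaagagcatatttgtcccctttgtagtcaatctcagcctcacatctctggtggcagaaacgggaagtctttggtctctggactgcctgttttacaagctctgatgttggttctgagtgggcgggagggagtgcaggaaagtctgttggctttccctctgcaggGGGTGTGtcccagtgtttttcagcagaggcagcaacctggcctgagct
Asns: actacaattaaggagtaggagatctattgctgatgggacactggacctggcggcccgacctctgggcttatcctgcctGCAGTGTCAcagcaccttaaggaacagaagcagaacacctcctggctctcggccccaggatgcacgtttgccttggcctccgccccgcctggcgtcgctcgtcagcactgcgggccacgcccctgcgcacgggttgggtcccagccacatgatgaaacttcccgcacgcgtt
The AP-1 letters stand in 2 of the 3 promoters that opened and were picked by size (Anxa2, Ttc39aos1), in that of Cidec, and in neither promoter that closed. Other promoters changed more than that of Cidec and are not printed, so these matches describe the printed promoters alone.

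In units of 1000000 counts, the library totals were 5.02, 5.55, 5.77 and 5.96 in FPC mild and 4.17, 3.79, 6.04 and 4.01 in FPC controls, so the mild libraries were on average deeper. Pearson correlations of log2 CPM (counts per 1000000 counts of a library, after TMM scaling), across peaks, were 0.928 to 0.962 within FPC mild, 0.929 to 0.957 within FPC controls and 0.856 to 0.883 between the groups. All 12 hepatocyte markers had peaks, at a summed 2175 to 2778 CPM in FPC mild and 2548 to 2956 CPM in FPC controls. Peaks lay near 6 of 15 macrophage, 4 of 15 lymphocyte, 11 of 15 endothelial, 3 of 15 stellate cell and 10 of 12 cholangiocyte markers. The macrophage sums were 60.7 to 70.01 CPM in FPC mild and 61.3 to 67.9 CPM in FPC controls, and the lymphocyte sums 158 to 171 CPM in FPC mild and 202 to 214 CPM in FPC controls. The cholangiocyte sums were 411 to 458 CPM in FPC mild and 354 to 395 CPM in FPC controls. Of the 4 measured lymphocyte markers 0 rose and 3 fell, and with the regional offsets described below 1 fell, against 18.9% and 9.93% of all genes. In such sums, more nuclei of a cell type and more open chromatin per nucleus cannot be told apart.

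FPC mild libraries had 10403 peaks higher and 9391 lower than FPC controls, together 28.8% of all peaks. That is 15.1% higher and 13.6% lower (edgeR's quasi-likelihood test, Benjamini-Hochberg adjusted p under 0.05). Diet and disease differ together between these groups and cannot be told apart. The gains were larger: 3958 peaks rose and 1569 fell over 2-fold, and 882 rose and 84 fell over 4-fold. The median of all peaks was −0.00 on the log2 scale. With libraries scaled over all peaks, promoters leaned toward opening, since 18.6% of 15589 promoter peaks rose and 6.95% fell, while of 27705 intron peaks 12.9% rose and 15.6% fell. Among 12040 peaks beyond 50 kb of a start 12.5% rose and 21.1% fell. Promoter peaks held 37.4%, 38.6%, 37.0% and 38.5% of the counts of the FPC mild libraries and 35.1%, 35.5%, 36.4% and 36.6% of those of the FPC control libraries. All 4 mild values were above all 4 control values, a difference of 1.97 percentage points (exact two-sided permutation test, p = 0.029, the smallest that 4 against 4 allows, adjusted p = 0.046 over 8 classes). Intron peaks held 31.7% in FPC mild and 32.9% in FPC controls, and intergenic peaks 24.9% and 25.5% of FPC mild and FPC control counts (exact permutation test, adjusted p = 0.046 each). The calls of these 3 classes were lost without mild library 1 or any one control library, where the promoter difference was 1.71 to 2.204 percentage points. They were also lost without the 1% of peaks with the most counts and as the mean log2 CPM of the class. In that mean the intron and intergenic values changed sign.

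The largest gains lay at sites that were almost closed in controls. They were chosen by size among called peaks of above-median level, within 50 kb of a start, whose groups did not overlap. That pool held 3509 gains and 2833 losses. The lack of overlap alone held for 27.5% of all peaks in either direction. Near Agfg1, which encodes a nucleoporin-like protein, an intergenic peak (chr1:82831931-82832131) had 5.02, 7.72, 7.40 and 8.998 CPM in FPC mild and 0, 0, 0.672 and 0.253 CPM in FPC controls. Its log2 fold change was 4.62 ± 0.44 (SE, edgeR's quasi-likelihood test, adjusted p = 3.3e-08), resting on 5 counts over the 4 control libraries. A peak at −20705 bp from the start of Ppp2ca, in an intron of a neighbouring gene (Ppp2ca encodes the catalytic subunit of the phosphatase PP2A), had 12.9, 19.4, 14.3 and 17.997 CPM in FPC mild and 1.21, 0.795, 0.672 and 0.506 CPM in FPC controls. The other gains by this rule lay near Kcnab1 (a potassium channel subunit, log2 4.46), BC003331 (4.32), Usp43 (a deubiquitinase, 3.83), Osbpl3 (an oxysterol-binding protein family member, 3.82), Tmem86a (a lysoplasmalogenase, 3.69) and Ccdc120 (3.36). Among promoters, that of Anxa2, encoding the membrane-binding protein annexin A2, opened most. Its peak had 18.3, 23.7, 21.3 and 27.3 CPM in FPC mild and 2.18, 2.12, 2.35 and 2.53 CPM in FPC controls, a log2 fold change of 3.29 ± 0.18 (SE, edgeR, adjusted p = 4.7e-12). The promoter peaks of Adamts1, a secreted metalloprotease (3.10), of the antisense RNA Ttc39aos1 (3.07) and of the RNA 4930444M15Rik (2.94) followed on the log2 scale. The authors' annotation places the Ttc39aos1 peak at the start of a protein-coding transcript as well, and accessibility does not tell the 2 apart.

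The losses named by the same rule were smaller. Its above-median level over all 22 libraries favours losses at sites open in controls, and gains from near 0 pass it through the other groups. The control level of the named peaks is thus in part set by the rule. The promoter of Adgrf1, an adhesion G protein-coupled receptor, had 12.3, 6.10, 6.54 and 4.67 CPM in FPC mild and 50.9, 32.3, 55.8 and 35.4 CPM in FPC controls. Its log2 fold change was −2.60 ± 0.33 (SE, edgeR, adjusted p = 2.5e-06). A peak at −17496 bp from the start of Larp4b, an RNA-binding protein, had 11.05, 11.5, 10.3 and 6.67 CPM in FPC mild and 35.9, 36.6, 38.3 and 37.4 CPM in FPC controls (log2 −1.91). The others lay near Irf5, an interferon regulatory factor (−1.87), Smim15 (−1.84), Jmy (−1.74), Zap70, a T cell kinase (−1.69), Slc7a15 (−1.64) and Fgb, fibrinogen beta (−1.64). Promoter losses were at Asns, asparagine synthetase (−1.34), F10, coagulation factor X (−1.23), and Car14, a carbonic anhydrase (−1.06). At Asns the mild libraries were tightly grouped, at 3.21, 3.59, 3.61 and 3.67 CPM, and the FPC controls spread from 4.36 to 14.7 CPM.

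**Figure D1:**
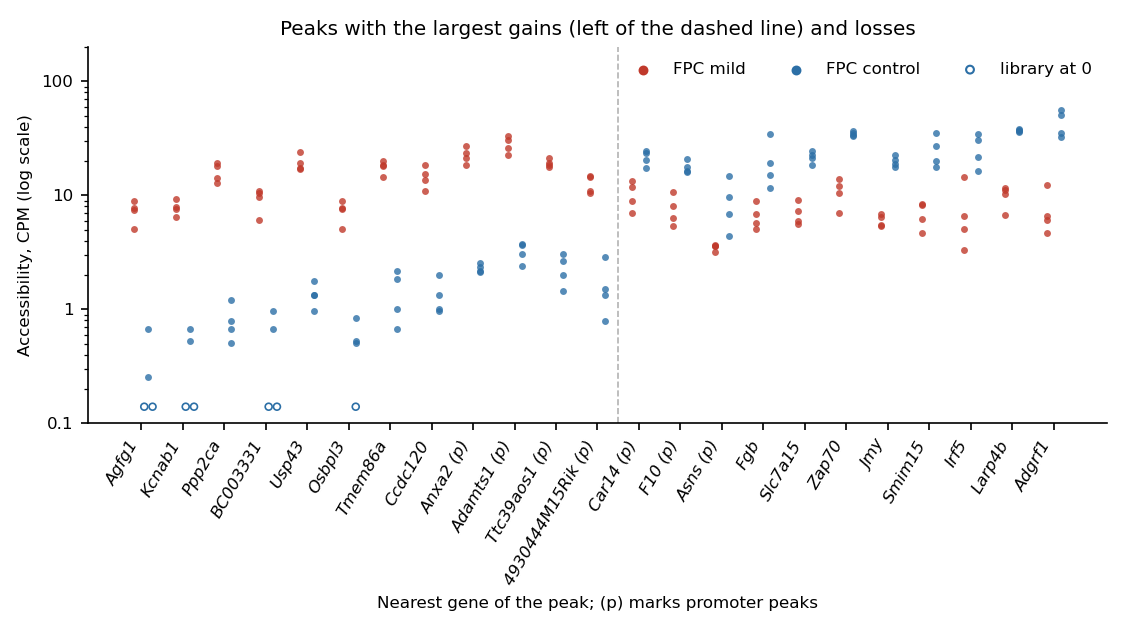
CPM on a log axis in each of the 4 FPC mild (red) and 4 FPC control (blue) libraries at the 23 peaks with the largest gains and losses, with open circles for libraries at 0. Gains start from control values near or below 3.71 CPM, and losses leave 3.21 CPM or more in FPC mild.

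Motif letters in promoters were counted where a RefSeq window of 300 bases overlapped a peak by at least 100 bp, which gave 10037 peaks, 2022 of them higher and 715 lower. AP-1 letters stood in 6.92% of the windows that opened, 4.06% of those that closed and 4.87% of all 10037. NFY letters (GCCAATC) stood in 17.6%, 9.93% and 11.7% in the same order, and NF-kB letters (GGANTTTCC) in 1.53%, 0.699% and 1.29%. C/EBP letters ran the other way, in 8.11% of the windows that opened, 14.1% of those that closed and 8.80% of all. So did the letters of the glucocorticoid receptor (ACANNNTGT), in 2.62%, 6.85% and 3.82%, of STAT (TTCNNNGAA), in 5.19%, 8.81% and 6.73%, and of IRF (GAAANNGAA), in 5.39%, 8.25% and 6.46%. HNF4A (CAAAGTCCA) and HNF1 (GTTAATNAT) letters also stood more often in windows that closed, but in only 59 and 78 windows in all. As a share of all promoter counts, windows with AP-1 letters took 4.30% ± 0.042 in FPC mild and 4.16% ± 0.017 in FPC controls (SD, n = 4 each, exact permutation test, p = 0.029, adjusted p = 0.060). Of 21 motifs 0 passed the adjusted threshold in this exact permutation test, and 10 reached the smallest p that 4 against 4 libraries allow. AP-1, NF-kB, NFY and E-box letters were higher in all 4 FPC mild libraries than in any FPC control library, and C/EBP, HNF4A, FOXA (TGTTTAC), HNF1, glucocorticoid receptor and SREBP letters lower. Windows with AP-1 letters had a median GC content of 57.3% and those without 62.0%, and for C/EBP letters the values were 55.7% and 62.3%. Of windows with 40 to 50% GC 10.3% opened and 14.4% closed, and of those with 60 to 70% GC 23.1% opened and 6.57% closed. GC weighted by counts was 63.0% ± 0.13 in FPC mild and 62.9% ± 0.11 in FPC controls (SD, n = 4 each, exact permutation test, p = 0.20), and the part of GC in the motif values was not tested.

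Accessibility also moved over whole chromosomes. Chromosome 19 held 3.09% ± 0.032 of the counts in FPC mild and 2.59% ± 0.068 in FPC controls, chromosome 11 held 7.04% ± 0.052 and 6.24% ± 0.14, and chromosome 7 held 6.75% ± 0.045 and 6.20% ± 0.054 (SD, n = 4 each). The shares of chromosomes 19, 11 and 7 were higher in every FPC mild library than in any control. Chromosome X held 1.39% ± 0.055 in FPC mild and 1.54% ± 0.049 in FPC controls, and chromosome 3 held 5.41% ± 0.064 and 5.90% ± 0.089. Of 20 chromosomes 7 held a larger and 8 a smaller share in FPC mild (exact permutation test, p = 0.029 for each, adjusted p = 0.038). Chromosomes with higher shares tended to be gene-dense, with chromosome 2 as an exception, whose share was lower at 9.79 coding genes per Mb. The median log2 change of a chromosome's peaks and its coding genes per Mb had a Pearson r of 0.76 and a Spearman rho of 0.69 across 20 chromosomes, which share libraries and so give a description. Without promoter peaks the median log2 change was still 0.20 on chromosome 19 and −0.23 on chromosome X. The part of gene density in this shift was not tested. With offsets for the counts of other peaks within 1 Mb, called regional offsets here and added after the data were seen, 8158 peaks rose (11.9%) and 6383 fell (9.27%).

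**Figure D2:**
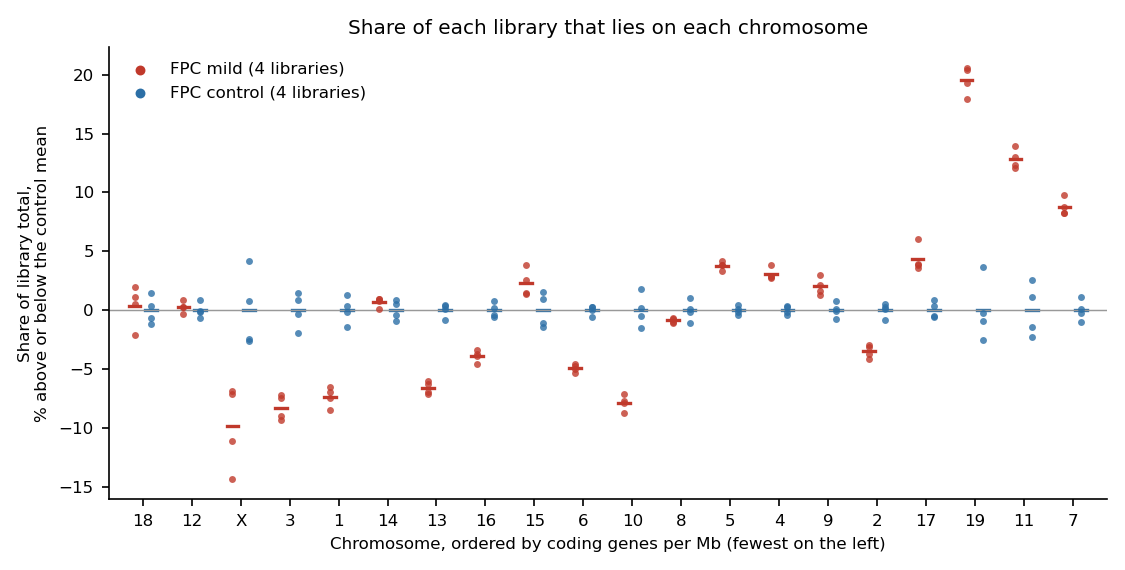
Share of each library's counts on each chromosome, as percent above or below the FPC control mean, for 4 FPC mild (red, left) and 4 FPC control (blue, right) libraries, with bars for means and chromosomes ordered by coding gene density. Chromosomes 19, 11 and 7 lie above all controls and X, 3, 10 and 1 below them.

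Summed in 1 Mb windows of at least 20 peaks, 404 of 1257 windows rose (32.1%) and 32.2% fell (edgeR's quasi-likelihood test with Benjamini-Hochberg adjustment, 64.4% called). The windows named here were picked by size after the data were seen. The largest gain was on chromosome 15 from 84000001 to 85000000, whose peaks lie nearest Samm50, Pnpla5, Prr5 and Phf21b. It had 945, 897, 940 and 905 CPM in FPC mild and 616, 554, 478 and 450 CPM in FPC controls, with 43 of 45 peaks above 0 and 32 called higher. The window with peaks nearest Ccnd1, cyclin D1 (chromosome 7, from 145000001), rose by a log2 of 0.75 ± 0.12 (SE), that with Ly6e and Ly6d (chromosome 15, from 74000001) by 0.60 ± 0.06, and that with Scd1 and Scd2, the stearoyl-CoA desaturases (chromosome 19, from 44000001), by 0.46 ± 0.05. The largest loss was the window of Ppargc1a, the coactivator PGC-1alpha (chromosome 5, from 51000001), with 325, 334, 354 and 324 CPM in FPC mild and 507, 527, 496 and 519 CPM in FPC controls. It fell by 0.61 on the log2 scale, with 16 of 24 peaks called lower and 0 called higher. Windows with Foxq1 and Foxc1 (−0.53 ± 0.07), Cyp7b1, an oxysterol hydroxylase (−0.51 ± 0.12), and Grb14, an inhibitor of the insulin receptor (−0.48 ± 0.06), fell as well (log2, SE).

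To describe gene groups, counts were summed over the peaks within 50 kb of a start. Of 15686 gene sums 3344 rose and 2969 fell (edgeR's quasi-likelihood test with Benjamini-Hochberg adjustment, 40.2% called, 21.3% higher and 18.9% lower), with a median log2 change of 0.02. With regional offsets 14.3% rose and 9.93% fell. Within a locus the directions could differ: of 8299 genes with a called peak, 753 had peaks of both directions. The 24 lists hold 479 genes, of which 456 had a gene sum. In the counts below, a share of members near those background shares is no result about a list.

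**Figure D3:**
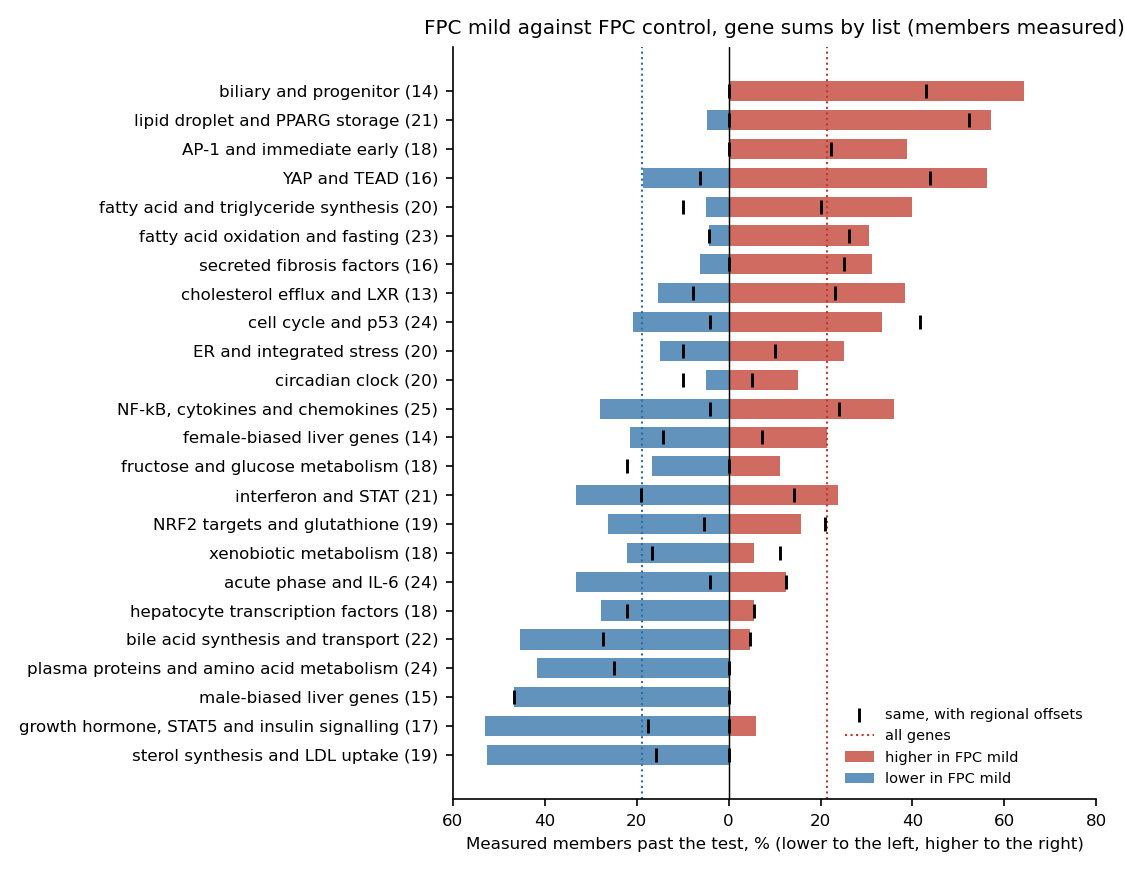
Percent of the measured members of 24 gene lists whose gene sums were higher (red, to the right) or lower (blue, to the left) in FPC mild than in FPC controls, with black ticks for the same with regional offsets and dotted lines for all genes. Biliary and lipid droplet genes stand furthest to the right, and sterol, growth hormone and male-biased genes furthest to the left.

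Of 21 lipid droplet and PPARG genes 12 rose and 1 fell (median log2 0.24), and with regional offsets 11 rose and 0 fell. Plin4, a droplet coat protein, had 171, 170, 173 and 170 CPM in FPC mild and 122, 128, 103 and 107 CPM in FPC controls (log2 0.58 ± 0.11, SE). Cd36, a fatty acid importer, rose by a log2 of 0.57 ± 0.11, Pparg itself by 0.36 ± 0.07 and Cidec, which fuses droplets, by 0.29 ± 0.07 (SE, edgeR, adjusted p = 0.00036, 0.00017 and 0.0015). The gene sum of Plin2, another droplet coat, was 254 ± 16.9 CPM in FPC mild and 251 ± 12.2 CPM in FPC controls (SD, n = 4 each), and 3 of its 14 peaks rose while 2 fell. Mogat1, a monoacylglycerol acyltransferase, was the member that fell, by 0.27 on the log2 scale. That call was lost without any one of mild libraries 1, 2, 3 and 4 and control libraries 2 and 4, and with regional offsets Mogat1 was at −0.09.

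For each of these loci the peak of smallest p is given. Such peaks, here and below, were picked among a locus's peaks in these same libraries. A larger change than that of the sum was thus close to set in advance. An intron peak of Cd36 (chr5:17880873-17881073) had 17.3, 12.6, 16.7 and 13.7 CPM in FPC mild and 5.33, 5.30, 1.68 and 1.52 CPM in FPC controls (log2 2.17 ± 0.25, SE). A peak 15955 bp from the start of Plin2 had 9.44, 5.74, 6.20 and 5.33 CPM in FPC mild and 1.94, 2.12, 1.34 and 3.04 CPM in FPC controls (log2 1.69 ± 0.29, SE). The Cidec peak over the promoter printed above, which the authors annotate as intronic (890 bp from another start), had 30.1, 31.6, 33.7 and 31.0 CPM in FPC mild and 13.3, 11.4, 11.3 and 11.1 CPM in FPC controls, so that every mild library was more than 2-fold above every control. Its log2 fold change was 1.43 ± 0.12 (SE, edgeR, adjusted p = 4.9e-09). The Pparg peak (chr6:115463083-115463283) had 22.3, 26.9, 26.5 and 21.0 CPM in FPC mild and 12.6, 14.1, 15.6 and 14.2 CPM in FPC controls.

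In the fit reported, fatty acid and triglyceride synthesis rose in part: of 20 members 8 rose and 1, Dgat2, fell (median log2 0.13). Without mild library 2 the count that fell was 2. With regional offsets 4 rose and 2 fell, against 14.3% and 9.93% of all genes, and the median was −0.009. Scd1, which desaturates stearate, had 453, 476, 461 and 459 CPM in FPC mild and 313, 300, 274 and 310 CPM in FPC controls (log2 0.63 ± 0.13, SE), and 11 of its 16 peaks rose. Pnpla3, a droplet lipase, rose by a log2 of 0.60 ± 0.10, Fads2, a polyunsaturated fatty acid desaturase, by 0.58 ± 0.09, and Dgat1, which makes triglyceride, by 0.33 ± 0.07 (SE). With regional offsets Pnpla3 was at 0.19 and missed the threshold. Fasn, fatty acid synthase, had 255 ± 15.8 CPM in FPC mild and 221 ± 24.9 CPM in FPC controls (SD, n = 4 each), with an adjusted p of 0.12 in edgeR's test, although its promoter peak rose (log2 0.41 ± 0.10, SE). Srebf1, the regulator of these genes, and Acaca, acetyl-CoA carboxylase, had gene sums whose log2 differences were 0.06 ± 0.07 and 0.08 ± 0.12 (SE), with edgeR adjusted p values of 0.50 and 0.63. Single peaks did rise, the Srebf1 promoter peak by 0.33 ± 0.08 and an Acaca intron peak by 0.56 ± 0.16 (log2, SE). At Srebf1 2 of 17 peaks rose and at Acaca 1 of 5, and 0 fell at either locus. Of 13 genes of cholesterol efflux and LXR 5 rose and 2 fell (3 and 1 with regional offsets). The exporter Abcg1 (0.70 ± 0.14) and Mylip, a ubiquitin ligase (1.11 ± 0.25), rose, and the exporters Abca1 and Abcg8 fell by 0.12 and 0.19 on the log2 scale. Without mild library 2 or 4 or control library 3, 0 members fell, and without control library 1 or 4, 1 fell.

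Of 19 genes of sterol synthesis and uptake 0 rose and 10 fell (median log2 −0.18). With regional offsets 0 rose and 3 fell, against 9.93% of all genes, and the median was −0.05. Sqle, squalene epoxidase, had 70.01, 62.2, 61.7 and 66.8 CPM in FPC mild and 93.4, 102, 107 and 110 CPM in FPC controls, without overlap (log2 −0.67 ± 0.08, SE, edgeR, adjusted p = 1.2e-06). Cyp51, a sterol demethylase, fell by 0.31 on the log2 scale. With regional offsets Sqle was at −0.49 and still passed, and Cyp51 at −0.20 did not. An intron peak of Sqle (chr15:59317149-59317349) had 6.83, 3.77, 6.20 and 4.67 CPM in FPC mild and 11.6, 14.3, 19.2 and 13.2 CPM in FPC controls. Srebf2, the regulator of the pathway, had 135 ± 4.6 CPM in FPC mild and 121 ± 6.7 CPM in FPC controls (SD, n = 4 each, edgeR, adjusted p = 0.082). Of its 5 peaks 1 rose, the promoter peak (log2 0.24 ± 0.09, SE), and 0 fell.

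**Figure D4:**
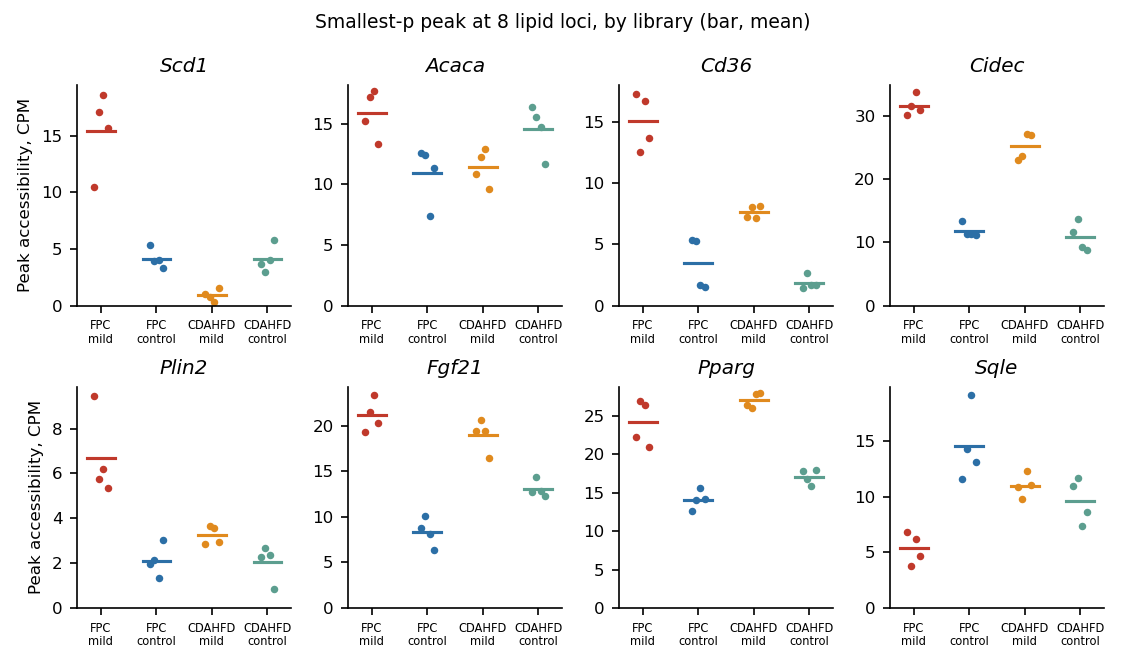
CPM at the peak of smallest p near 8 lipid genes in the 4 libraries of each of FPC mild, FPC control, CDAHFD mild and CDAHFD control, with bars for means and axes from 0. FPC mild lies above FPC control at Scd1, Acaca, Cd36, Cidec, Plin2, Fgf21 and Pparg and below it at Sqle. Set against each diet's own controls, the mild changes differed past edgeR's test at the Scd1, Acaca, Fgf21 and Sqle peaks. At the Cd36, Cidec, Plin2 and Pparg peaks they did not.

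Fatty acid oxidation and fasting genes rose in 7 and fell in 1 of 23 members (median log2 0.21), with 6 and 1 with regional offsets, and 2 fell without control library 3. Fgf21, a hormone of fasted and stressed liver, had 85.3, 87.7, 85.8 and 74.7 CPM in FPC mild and 53.3, 53.1, 41.5 and 47.7 CPM in FPC controls (log2 0.78 ± 0.10, SE, edgeR, adjusted p = 1.6e-06). Acot2, an acyl-CoA thioesterase, rose by a log2 of 0.90 ± 0.18 (SE). Ppargc1a fell by 0.51 on the log2 scale, in a window where most peaks fell, and was at −0.02 with regional offsets. Of 18 genes of fructose and glucose metabolism 2 rose and 3 fell (0 and 4 with regional offsets). Without mild library 1, 1 rose and 6 fell, without mild library 2, 1 fell, and without control library 3, 1 rose. Sord, sorbitol dehydrogenase, fell by 0.36, and Khk, the fructose kinase, had 150 ± 7.6 CPM in FPC mild and 162 ± 15.4 CPM in FPC controls (SD, n = 4 each, edgeR, adjusted p = 0.34).

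Inflammatory genes moved both ways. Of 25 genes of NF-kB, cytokines and chemokines 9 rose and 7 fell, and with regional offsets 6 rose and 1 fell. Ccl2, the monocyte chemokine, had 66.5, 77.4, 76.2 and 78.3 CPM in FPC mild and 58.2, 49.0, 51.3 and 46.8 CPM in FPC controls (log2 0.54 ± 0.08, SE). Nlrp3, the inflammasome sensor (0.63), Mlkl, the effector of necroptosis (0.62), Relb (0.49), Nfkb2 (0.37) and the adhesion molecule Icam1 (0.37) also rose on the log2 scale. With regional offsets Nlrp3 (0.49) and Nfkb2 (0.08) missed the threshold. An intron peak of Icam1 had 2.81, 4.67, 3.10 and 5.33 CPM in FPC mild and 0.485, 1.33, 1.34 and 2.02 CPM in FPC controls, on 23.5 control counts. Birc3, an inhibitor of apoptosis, fell by 0.42, and Csf1, Nfkbiz, Il1r1, Tlr2, Il15 and Cxcl1 fell by 0.24 to 0.35. The single Tnf peak stayed low, at 1.81, 0.538, 1.20 and 1.00 CPM in FPC mild and 0.485, 1.06, 0.168 and 0.759 CPM in FPC controls, with overlapping groups. Beside these genes, of the 6 measured macrophage markers 0 rose and 1 fell, and 0 fell without control library 1. Their part in these values was not tested.

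Acute phase genes rose in 3 and fell in 8 of 24 members, and with regional offsets 3 rose and 1 fell. Lcn2, lipocalin 2, was higher in every FPC mild library at its 1 peak, with 24.7, 19.0, 24.8 and 17.997 CPM in FPC mild and 15.3, 12.7, 13.8 and 11.1 CPM in FPC controls. Hp, haptoglobin, rose by a log2 of 0.27 ± 0.06 (SE), and the fibrinogen genes Fgb, Fga and Fgg fell by 0.45, 0.39 and 0.39. With regional offsets Fgb was at −0.18, Fga at −0.14 and Fgg at −0.13, and all missed the threshold. The sums of Saa1, Socs3 and Stat3 did not pass edgeR's test, at log2 differences of −0.00 ± 0.12, 0.09 ± 0.09 and 0.11 ± 0.07 (SE). Of 11 Socs3 peaks 2 rose and 0 fell, and the peak of smallest p rose by 0.27 ± 0.07 (log2, SE). Of 7 Stat3 peaks 1 rose, the promoter peak (0.23 ± 0.08), and 0 fell. Of 4 Saa1 peaks 0 rose and 0 fell. Of 21 interferon and STAT genes 5 rose and 7 fell (3 and 4 with regional offsets), and without control library 3 or mild library 1 the higher count was 2, without control library 4 it was 3. The interferon gamma receptor Ifngr1 fell by 0.30, but was at 0.03 with regional offsets. Stat5a rose by a log2 of 0.41 ± 0.08 (SE) and was at 0.30 with regional offsets.

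AP-1 and immediate early genes rose in 7 and fell in 0 of 18 members (median log2 0.12), and in 4 and 0 with regional offsets. Without mild library 1 the count that fell was 1. Mafk, a small Maf partner of CNC factors, had 108, 113, 126 and 111 CPM in FPC mild and 68.2, 58.4, 66.2 and 63.4 CPM in FPC controls, and all 6 of its peaks rose (log2 0.84 ± 0.08, SE, edgeR, adjusted p = 8.4e-08). Ier3 (0.86 ± 0.17), Batf (0.75 ± 0.20), Maff (0.57 ± 0.09), Fos (0.28 ± 0.08) and Fosl2 (0.22 ± 0.06) also rose on the log2 scale, and with regional offsets Fos (0.15) and Fosl2 (0.11) missed the threshold. The Fosl2 promoter peak had 41.8, 40.2, 43.4 and 37.3 CPM in FPC mild and 22.3, 29.2, 22 and 26.8 CPM in FPC controls. Jun and Atf3 had sums of 153 ± 3.2 and 187 ± 3.2 CPM in FPC mild, against 147 ± 9.8 and 180 ± 16.9 CPM in FPC controls. Neither sum passed edgeR's test. Of 6 Jun peaks 2 rose and 1 fell, and the peak of smallest p changed by −0.85 ± 0.14 (log2, SE). Of 4 Atf3 peaks 0 rose and 0 fell.

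Of 20 genes of ER and integrated stress 5 rose and 3 fell, shares near those of all genes (2 and 2 with regional offsets, and 3 rose without control library 1 or mild library 3). The chaperone Hspa5 (0.25 ± 0.06), Atf4 (0.24 ± 0.06) and Ddit3, or CHOP (0.20 ± 0.06), rose on the log2 scale, and Asns fell by 0.63. With regional offsets Atf4 was at 0.03 and missed the threshold. The call for Ddit3 was lost without control library 1. Of 19 NRF2 and glutathione genes 3 rose and 5 fell (4 and 1 with regional offsets). Nqo1, a quinone reductase, had 25.7, 24.7, 22.8 and 23.9 CPM in FPC mild and 16.3, 15.7, 14.9 and 16.0 CPM in FPC controls, while Gsta2, a glutathione transferase, fell by 0.46 and Nfe2l2, the NRF2 gene, by 0.23. With regional offsets Nfe2l2 was at −0.06 and missed the threshold.

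Among plasma protein, amino acid and bile acid genes the members that passed the test fell, with 1 exception. Of 24 genes of plasma proteins and amino acid metabolism 0 rose and 10 fell (median log2 −0.20), and with regional offsets 0 rose and 6 fell. Cps1, the entry enzyme of the urea cycle, had 191, 159, 193 and 167 CPM in FPC mild and 261, 241, 262 and 267 CPM in FPC controls (log2 −0.54 ± 0.10, SE). Arg1, arginase, fell by 0.61, Tdo2, which degrades tryptophan, by 0.57 and Gls2, liver glutaminase, by 0.43, and with regional offsets Arg1 was at −0.21 and missed the threshold. Alb, albumin, and Apob did not pass the test as sums, at log2 differences of −0.14 ± 0.07 and −0.01 ± 0.06 (SE, edgeR, adjusted p = 0.14 and 0.87), although 4 of 16 Alb peaks fell. Of 22 genes of bile acid synthesis and transport 1 rose and 10 fell (median log2 −0.19), and 1 and 6 with regional offsets, and 2 rose without mild library 2 or 4. Cyp7b1 (−0.88 ± 0.24), the uptake transporter Slco1a1 (−0.56 ± 0.11), Akr1d1, which reduces bile acid precursors (−0.55 ± 0.09), the bile salt pump Abcb11 (−0.40 ± 0.11) and the uptake transporter Slc10a1 (−0.34 ± 0.10) fell on the log2 scale. With regional offsets Cyp7b1 (−0.54) and Abcb11 (−0.23) missed the threshold. Cyp7a1, the rate-limiting enzyme of bile acid synthesis, had 215 ± 37.7 CPM in FPC mild and 242 ± 24.7 CPM in FPC controls (SD, n = 4 each, edgeR, adjusted p = 0.25). Of 12 Cyp7a1 peaks 1 rose and 2 fell, and the peak of smallest p changed by −0.77 ± 0.19 (log2, SE).

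Of 18 hepatocyte transcription factors 1 rose and 5 fell (1 and 4 with regional offsets). The 1 that rose was 0 without mild library 1 or control library 3 or 4, and 2 without mild library 2 or 4. Nr5a2 (−0.31 ± 0.05), Foxa1 (−0.40 ± 0.09), Foxa2 (−0.26 ± 0.06), Nr1h4, the bile acid receptor FXR (−0.24), and Hnf4a (−0.20 ± 0.05) fell on the log2 scale. With regional offsets Foxa1 and Foxa2 were at 0.01 and 0.09, so their direction was not kept, and Hnf4a was at −0.19. Of 18 xenobiotic genes 1 rose and 4 fell (2 and 3 with regional offsets). The 1 that rose was 2 without control library 1 and 0 without control library 2, 3 or 4 or mild library 3. In the fit reported, the share of xenobiotic genes that fell is near that of all genes and the share that rose is below it. The aldehyde oxidase Aox3 fell by 0.45. Of 17 genes of growth hormone, STAT5 and insulin signalling 1 rose and 9 fell (median log2 −0.30), and 0 and 3 with regional offsets, and 0 rose without mild library 1 or 3 or control library 2, 3 or 4. Igf1, the main growth hormone target, had 357, 149, 232 and 210 CPM in FPC mild and 435, 264, 449 and 252 CPM in FPC controls, with overlapping groups (log2 −0.57 ± 0.22, SE, edgeR, adjusted p = 0.042). That call was lost without any one of control libraries 1 and 3 and mild libraries 2, 3 and 4. Of 24 Igf1 peaks 7 fell and 1 rose, the peak of smallest p, by a log2 of 1.22 ± 0.28 (SE).

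Male-biased liver genes fell in 7 and rose in 0 of 15 members (median log2 −0.25), and in 7 and 0 with regional offsets. Cyp7b1 and Slco1a1, given above as bile acid genes that fell, are members of both lists. Hsd3b5, a steroid dehydrogenase of male mouse liver, had 44.0, 35.2, 41.1 and 32.8 CPM in FPC mild and 74.2, 71.9, 89.5 and 76.4 CPM in FPC controls (log2 −1.04 ± 0.14, SE, edgeR, adjusted p = 8.5e-06). A peak at −32423 bp from its start had 5.22, 3.23, 5.85 and 3.999 CPM in FPC mild and 17.2, 16.4, 19.5 and 20.5 CPM in FPC controls. C8b, a complement protein, fell by 0.72 and Mup20, a urinary protein, by 0.44. Of 14 female-biased genes 3 rose and 3 fell (1 and 2 with regional offsets), and 1 fell without control library 1 or mild library 2 or 3. Of 20 clock genes 3 rose (Per3, Per1 and Nr1d1, with log2 changes of 0.33, 0.32 and 0.27) and 1 fell, and with regional offsets 1 rose and 2 fell. Without control library 1, 0 fell, and without mild library 1, 2 fell. Per1 and Nr1d1 were at 0.06 and 0.04 with regional offsets and missed the threshold. No source used here gives the hour at which mice were killed.

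Of 14 biliary and progenitor genes 9 rose and 0 fell (median log2 0.35), 6 and 0 with regional offsets, and 4 rose without control library 3. Cd24a, a progenitor surface protein, had 4.64, 5.76, 6.41 and 11.5 CPM in FPC mild and 2.01, 3.46, 0.979 and 2.67 CPM in FPC controls (log2 1.74 ± 0.42, SE). Epcam, an epithelial adhesion protein, rose by a log2 of 1.04 ± 0.31 and Krt19, a bile duct keratin, by 1.48 ± 0.46 (SE). Krt19 rests on a single peak with 16.5 control counts. The Krt19 call was lost without control library 3 or mild library 4. Sox9, a bile duct factor, had 30.6 ± 2.5 CPM in FPC mild and 29.5 ± 7.4 CPM in FPC controls (SD, n = 4 each, edgeR, adjusted p = 0.91). Beside these, of 10 measured cholangiocyte markers 6 rose and 0 fell, and 2 rose without control library 3 and 3 without mild library 3 or 4. Of the 12 cholangiocyte markers 10 are also members of the biliary list. The part of bile duct nuclei in these values was not tested.

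Of 16 YAP and TEAD genes 9 rose and 3 fell (median log2 0.27), and 7 and 1 with regional offsets. Myof, a membrane repair protein, had 19.5, 17.9, 15.6 and 25.02 CPM in FPC mild and 6.30, 8.48, 5.48 and 5.92 CPM in FPC controls (log2 1.602 ± 0.21, SE, edgeR, adjusted p = 4.1e-06). Ankrd1 (2.49 ± 0.78, on 5 control counts), the phosphatase Ptpn14 (1.71 ± 0.36), Ctgf, a matricellular protein (0.57 ± 0.12), and Wwtr1, or TAZ (0.56 ± 0.09), rose on the log2 scale. The Ctgf promoter peak had 4.62, 5.92, 3.44 and 4.999 CPM in FPC mild and 0.969, 0.795, 1.01 and 1.01 CPM in FPC controls. Yap1 itself fell by 0.28 and Cyr61 by 0.21, but with regional offsets Yap1 was at −0.01 and Cyr61 at 0.03. The call for Cyr61 was also lost without control library 2 or mild library 1, and its sign turned with peaks within 10 kb, at 0.15. The YAP and TEAD list holds Tgfb2 as the third member that fell.

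Of 16 secreted fibrosis factors 5 rose and 1 fell (median log2 0.13), 4 and 0 with regional offsets, and 3 rose without control library 3. Tgfb1, the main profibrotic cytokine, had 19.2, 16.9, 12.8 and 12.99 CPM in FPC mild and 7.45, 9.74, 8.42 and 10.1 CPM in FPC controls (log2 0.79 ± 0.15, SE, edgeR, adjusted p = 0.0003). Pdgfb, a mitogen of stellate cells, rose by a log2 of 1.503 ± 0.49 and Pdgfa by 0.43 ± 0.08 (SE). The Pdgfb call was lost without control library 3 or mild library 4, and with regional offsets Pdgfb (1.30) and Pdgfa (0.17) missed the threshold. Inhba, an activin subunit, fell by 0.49 and was at −0.05 with regional offsets. Of 24 cell cycle and p53 genes 8 rose and 5 fell (10 and 1 with regional offsets). Cdkn1a, the cell cycle inhibitor p21, had 49.1, 56.0, 58.9 and 61.1 CPM in FPC mild and 19.5, 18.2, 19.8 and 24.9 CPM in FPC controls, and all 5 of its peaks rose (log2 1.46 ± 0.13, SE, edgeR, adjusted p = 2.1e-08). Its promoter peak had 15.7, 19.0, 18.9 and 21.0 CPM in FPC mild and 5.33, 4.24, 4.54 and 6.07 CPM in FPC controls. Ccnd1 rose by a log2 of 0.62 ± 0.09 (SE) and Mcm5, a replication factor, fell by 0.43.

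The mild change on the FPC diet was tested against that on the CDAHFD, with each diet's own controls. The 2 changes differed at 1269 peaks in which the FPC change was the higher (1.84%) and 1122 in which it was the lower (1.63%), 3.47% of all peaks, at 827 gene sums, 5.27%, and at 117 windows of 1 Mb, 9.31% (edgeR's quasi-likelihood test of the difference). Diet, weeks on it and depth differ together between the arms and cannot be told apart. Among the named gene sums the largest difference was that of Scd1, which changed by a log2 of 0.63 on FPC and −1.04 on CDAHFD, a difference of 1.67 (edgeR, adjusted p = 5.9e-06). A peak at −11991 bp from the start of Scd1 had 10.4, 17.1, 18.6 and 15.7 CPM in FPC mild and 5.33, 3.98, 4.03 and 3.29 CPM in FPC controls, while its change on CDAHFD was −2.03, the opposite way. Acaca (difference 1.06), Pnpla3 (0.96), Fasn (0.75) and Srebf1 (0.41) also differed upward, as did the exporter Abcg1 (0.72) and the elongase Elovl3 (0.74). For Acaca, Fasn, Srebf1 and Elovl3 the FPC change of the gene sum itself did not pass the test. Sqle differed downward, with −0.67 on FPC and 0.32 on CDAHFD, as did Gsta2, with −0.46 on FPC and 0.32 on CDAHFD (log2). The Asns promoter peak fell by 1.34 on FPC and was at 0.72 on CDAHFD, a difference of −2.06 ± 0.39 (SE, edgeR, adjusted p = 0.0033). For Pparg, Cd36, Cdkn1a, Tgfb1, Hsd3b5 and Myof the 2 changes did not differ past the threshold, with differences of −0.04 ± 0.09, −0.04 ± 0.16, 0.37 ± 0.18, −0.04 ± 0.21, 0.26 ± 0.20 and −0.45 ± 0.31 as gene sums (log2, SE).

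**Figure D5:**
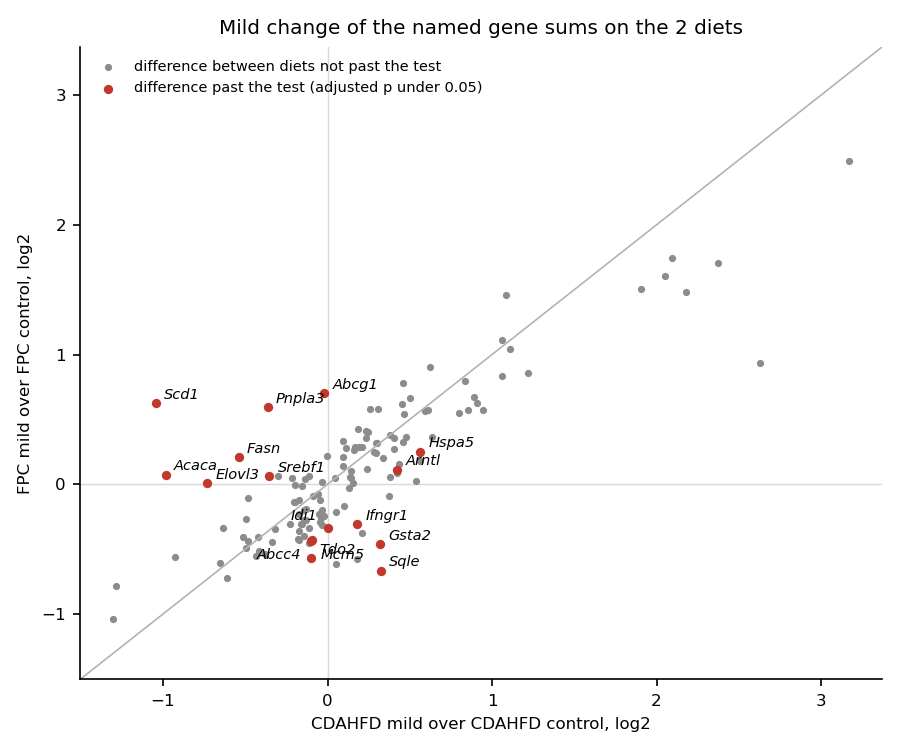
Log2 change of the named gene sums in FPC mild over FPC control (vertical) and CDAHFD mild over CDAHFD control (horizontal), with genes in red whose changes differed between the diets and a diagonal of equal change. Scd1, Acaca, Fasn, Pnpla3, Srebf1, Abcg1 and Elovl3 lie above the diagonal and Sqle, Gsta2 and Ifngr1 below it.

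Advanced FPC disease was compared with the same 4 FPC controls, so its values are set beside the mild ones with no test of likeness. Cd24a changed by a log2 of 1.74 in mild and 3.58 in advanced disease, Ankrd1 by 2.49 and 5.04, Tgfb1 by 0.79 and 1.28, and Hsd3b5 by −1.04 and −2.003. Plin4 changed by 0.58 in mild and 0.16 in advanced disease, Cd36 by 0.57 and 0.20, the gene sum of Pparg by 0.36 and 0.15, and Scd1 by 0.63 and 0.34. The Pparg, Scd1 and Cd36 peaks given above changed by 0.77, 1.89 and 2.17 in mild and by 0.99, 1.81 and 1.47 in advanced disease. Cyp2e1, an oxidase of the central lobule, was at −0.09 in mild and −1.25 in advanced disease.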

How the data were processed

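ATAC-seq was run on nuclei of 22 HEP-INTACT mouse livers, and 8 libraries (4 FPC mild, 4 FPC control) were compared. The authors deposited a table of values per peak, not normalized, over 68827 annotated peaks of 200 bp. These deposited values come in steps of 0.5 for a reason no source used here states, 47.8% of them not whole. The deposited values were read here like expected counts, a reading the authors do not state, and rounded to whole numbers. Per the submitters' processing notes, the genome build was mm10 and the tools named were BWA 0.7.5a-r405, SAMtools, HOMER and DESeq2, whose roles and settings the notes do not state.

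All 22 libraries were fitted with 1 mean per group (6 groups) in edgeR 4.0.16 under R 4.3.3, by quasi-likelihood tests with TMM factors of 0.984 to 1.02 and Benjamini-Hochberg adjustment, and calls have an adjusted p under 0.05. Gene sums add the peaks whose nearest start is that gene's, within 50 kb. Shares of counts were compared by exact two-sided permutation tests over the 70 ways to split 8 libraries, whose smallest p is 0.029. DESeq2 1.42.0 and limma 3.58.1 served the alternatives, and the edgeR script was tested on simulated data. No genome was used, so motifs were searched in RefSeq promoter windows and not in all peaks, as had been planned. PCR duplicates and insertion sites were handled upstream in ways that no source used here states. The p-values measure the spread between these mice.

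The members and gene lists were chosen with earlier results of these data known. Peaks were named by the rule of largest gain or loss among called peaks above the median level, without overlap between groups, 1 per gene within 50 kb of a start (8 each way, and 4 each way within 1 kb). In each list the called members of smallest p and a fixed set of anchor genes were named, and other members were named after their values were seen. Some members that the rule names are not reported here. Chromosome shares, 1 Mb windows and offsets were added after the data were seen.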

Additional observations from a re-analysis of the deposited data

Results flagged for a closer look

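Among 564 groups of 4 libraries tested for a library far from the others, 23 values stood apart, and chance gives about 1 in 20 groups. In FPC mild library 1 these were 3.21 CPM at the Asns promoter peak, the gene sums of Dgat1 (81.1 CPM), Acaca (78.4 CPM), Acot2 (27.8 CPM), Socs3 (224 CPM), Stat3 (167 CPM) and Ccnd1 (234 CPM), and the windows of Mycl and Mfsd2a (537 CPM), Scd1 and Scd2 (1210 CPM) and Cyp7b1 (262 CPM). In the other FPC mild libraries they were the gene sums of Pgd (83.6 CPM) in library 2, Akr1d1 (179 CPM) in library 3 and Inhba (94.9 CPM) in library 4. In FPC control library 3 they were the gene sums of Cpt1a (195.8 CPM), Il6st (138 CPM), Nat2 (82.8 CPM) and Sctr (44.6 CPM). In the other FPC control libraries they were Hspa5 (134 CPM) and the Cidec peak (13.3 CPM) in library 1, Serpina1a (95.2 CPM) and the Arntl peak (36.1 CPM) in library 2, and Hnf4a (149 CPM) and the Nqo1 peak (6.07 CPM) in library 4.

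At 33 named values the mild change on FPC differed from that on CDAHFD in edgeR's test of the difference. The differences below are FPC minus CDAHFD on the log2 scale. Gene sums with the higher change on FPC were Scd1 (1.67), Acaca (1.06), Pnpla3 (0.96), Fasn (0.75), Elovl3 (0.74), Abcg1 (0.72), the endothelial markers Vwf (0.55) and Flt1 (0.47), and Srebf1 (0.41). Gene sums with the lower change were Sqle (-0.99), Gsta2 (-0.78), Ifngr1 (-0.48), Tdo2 (-0.47), Idi1 (-0.34), Abcc4 (-0.33), Mcm5 (-0.33), Arntl (-0.31) and Hspa5 (-0.31). Peaks chosen by size differed near Tmem86a (2.67), Larp4b (-0.80) and Asns (-2.06). Peaks of smallest p differed at Scd1 (3.92), Hsd3b5 (1.09), Acaca (0.93), Fgf21 (0.82), Cyr61 (-0.57), Arntl (-0.73), Nfkbia (-1.37) and Sqle (-1.65). Of the named windows, that of Samm50 and Pnpla5 differed by 0.95, that of Scd1 and Scd2 by 0.62, that of Mycl and Mfsd2a by 0.33 and that of Upp2 and Acvr1 by -0.21.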

How the results depend on the processing

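Counts of called peaks stayed within 1.5 times under every alternative run: without 1 library at a time, 8009 to 9276 peaks rose and 7397 to 8560 fell. For genes, 1839 rose and 1994 fell with promoter peaks within 1 kb alone, where library sizes come from those sums and so centre on promoters, and 1558 fell with regional offsets. With chromosome offsets 63.4% of called genes were higher, against 52.97% in the fit reported. All 23 named peaks and 12 named windows kept direction and call in the alternatives run. They were picked as the largest changes in these same libraries, so this was close to set in advance. The windows were not run with chromosome or regional offsets. Of the peaks of smallest p over the alternatives, 1334 values stayed called or not called as in the fit reported, 94 lost the call and 19 gained one. With regional offsets alone 59 of these peaks stayed so, 16 lost the call and 2 gained one. Of the gene sums over the alternatives, 3146 values kept direction and call, 155 lost the call, 48 gained one and 12 changed sign. The sign changes were Cyr61 (0.15 within 10 kb, 0.15 within 1 kb, 0.035 with regional offsets), Abca1 (0.030), Pparg (-0.019), Fos (-0.065) and Abcc4 (0.81) within 1 kb, and Ifngr1 (0.031), Dnajc3 (0.13), Foxa1 (0.0071), Foxa2 (0.094) and Themis (0.018) with regional offsets. The cause was not tested. Shares by class lost the threshold as mean log2 CPM of the class, where intergenic (0.043) and intron (0.0024) peaks changed sign and exon (-0.068), non-coding (0.063) and promoter (0.10) peaks did not. Without the 1% of peaks with the most counts they were -0.71, -1.30, -0.10, 0.0045 and 2.07 percentage points for intergenic, intron, exon, non-coding and promoter peaks. There too they lost the threshold. Without 1 library at a time they ran from -0.81 to -0.55, -1.41 to -1.09, -0.10 to -0.090, 0.018 to 0.023 and 1.71 to 2.25 in the same order, and lost the threshold without mild library 1 or any control library. No motif passed in any alternative run on promoter windows, and those planned on all peaks were not run, since no genome was used. No paired analysis was possible because the libraries of both groups come from separate mice and their numbers are only names. Peaks near 0 in controls rest on few counts, which limits their fold.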
